A study of Mus musculus with 88 samples.

Results

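The genes described here are 7 of the 24453 genes in the count table: Adipoq, Lep, Cfd, Retn, Lipe, Acvr1c and Ucp1. They are genes of fat cells, were matched by symbol to the deposited gene annotation, and all 7 were found. They were selected on their counts, because their means differed between KO and WT in kidney and in EDL, so their KO and WT values in those tissues are given as a description with no test. The libraries came from 5 Cdh15 KO mice and 5 WT mice, all males of the strain 100% C57BL/6NTac, 65 to 85 days old and fasted for 18 h. Cdh15 encodes M-cadherin, a cell adhesion protein of muscle cells, and the KO is labelled only by the targeted gene, so no driver or cell type restriction is given. Each mouse gave EDL (extensor digitorum longus), gastrocnemius, soleus, tibialis, heart, kidney, liver, lung and spleen, and 88 polyA RNA libraries were analysed, since 1 WT kidney and 1 WT spleen are not analysed here. Values of single libraries follow the mice in a constant order. The KO mice are 3779417 (85 days), 3793546 (82 days), 3805666 (72 days), 3805676 (71 days) and 3817943 (65 days). The WT mice are 3793543 (82 days), 3793553 (83 days), 3805657 (72 days), 3805673 (71 days) and 3817948 (65 days). WT kidney lacks mouse 3793543, and WT spleen lacks mouse 3805657.

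White fat cells store triglyceride and release hormones and enzymes into the blood. Adipoq encodes adiponectin, Lep encodes leptin, the signal of fat stores to the brain, Cfd encodes adipsin, a serine protease of the alternative complement pathway, and Retn encodes resistin, which mouse fat cells secrete. Lipe encodes hormone-sensitive lipase, an enzyme of triglyceride breakdown that other tissues also make. Acvr1c encodes ALK7, a receptor of the TGF-beta family found in fat cells, and Ucp1 encodes the uncoupling protein of brown fat. Fat lies between muscles and around the heart and kidney, so a dissected sample of these organs can hold fat cells. In such whole-tissue RNA, fewer cells of a type and less RNA per cell cannot be told apart.

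The start regions of 3 genes are printed, Adipoq and Cfd as the pair that moved together most closely, and Lep as the gene most restricted to the muscles. The sequences are RefSeq promoters of GRCm38.p6, from 250 bases before to 50 bases after the gene start, and all 7 genes matched. Adipoq is at chr16:23146286-23146585, Cfd at chr10:79890603-79890902 and Lep at chr6:29059971-29060270, each on the plus strand. Capitals mark a CCAAT box, read as CCAAT or as ATTGG on the other strand, and in Lep the C/EBP element TTGCNNAA.
Adipoq: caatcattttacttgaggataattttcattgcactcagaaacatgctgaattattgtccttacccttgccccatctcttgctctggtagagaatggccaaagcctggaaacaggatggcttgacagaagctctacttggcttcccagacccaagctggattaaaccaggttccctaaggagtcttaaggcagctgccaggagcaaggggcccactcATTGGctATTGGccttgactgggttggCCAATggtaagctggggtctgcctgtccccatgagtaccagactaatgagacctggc
Cfd: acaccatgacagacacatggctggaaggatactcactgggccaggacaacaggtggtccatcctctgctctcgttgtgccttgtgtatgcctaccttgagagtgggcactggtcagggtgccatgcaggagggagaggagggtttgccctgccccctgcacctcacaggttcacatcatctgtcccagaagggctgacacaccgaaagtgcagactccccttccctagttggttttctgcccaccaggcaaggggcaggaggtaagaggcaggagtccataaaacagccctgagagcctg
Lep: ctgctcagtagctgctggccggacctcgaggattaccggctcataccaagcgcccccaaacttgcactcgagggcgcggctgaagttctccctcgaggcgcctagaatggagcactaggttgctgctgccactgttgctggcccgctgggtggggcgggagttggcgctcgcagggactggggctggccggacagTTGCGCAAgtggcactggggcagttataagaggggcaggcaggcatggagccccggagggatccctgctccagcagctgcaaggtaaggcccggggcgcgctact
Among the 7 promoters, a CCAAT box was found in Adipoq alone, at 3 places, while 37.4% of 32851 promoters of the same length held it. The C/EBP element was found in Lep alone, as TTGCGCAA 55 bases before the start, and 10.8% of all promoters held it. TATAAA (13.6% of promoters) and the PPAR direct repeat (0.381%) were in none of the 7. Both strands were searched, and overlaps between motifs were allowed. The base composition also differed. The GC share was 50% in Adipoq, 57.7% in Cfd, 66.0% in Lep, 54.0% in Retn, 61.0% in Lipe, 64.7% in Ucp1 and 79% in Acvr1c, which exceeded or equalled 98.7% of promoters.

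Library totals ran between 8205964 and 25144410 counts, with a median of 19024260. Levels are CPM, counts scaled to the total of their library, and 3 counts, the limit that a count of 0 allows, are 0.119 to 0.366 CPM. Such limits cover counting error only. Cdh15 stood at 1.06 to 4.06 CPM in KO muscles against 11.7 to 23.0 CPM in WT muscles, and at no more than 0.144 CPM in any organ. The labelled tissues held their own markers. The summed skeletal muscle markers were at least 32608 CPM in muscle libraries and at most 1513 CPM elsewhere, and the markers of the other tissues were set apart likewise, with the narrowest gap for spleen, at least 3227 CPM in spleens and at most 186 CPM elsewhere. The labels do not say how the tissues were dissected.

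Adipoq was highest in soleus and gastrocnemius, lower in EDL, kidney, tibialis, heart and lung, and near 0 in liver. Over both genotypes it averaged 17.6 ± 13.6 CPM in soleus (SD, n = 10) and 17.0 ± 7.02 CPM in gastrocnemius (SD, n = 10). EDL followed with 10.3 ± 5.78 CPM (SD, n = 10), kidney with 9.95 ± 2.38 CPM (SD, n = 9) and tibialis with 6.90 ± 2.51 CPM (SD, n = 10). Heart had 6.54 ± 4.201 CPM and lung 5.21 ± 1.36 CPM (SD, n = 10 each). Spleen had 1.83 ± 4.48 CPM (SD, n = 9), a mean that 1 library set, and liver 0.0400 ± 0.0503 CPM (SD, n = 10), with at most 2 counts in a library. Of the 8 steps between neighbours in this order, kidney over tibialis alone was larger than the larger of the neighbours' SDs.

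The other hormones and Acvr1c were highest in soleus or gastrocnemius and lowest in liver, with a varied order between. Cfd averaged 78.2 ± 59.6 CPM in soleus, 68.3 ± 28.6 CPM in gastrocnemius, 40.5 ± 12.1 CPM in kidney and 38.3 ± 21.0 CPM in EDL. It then had 34.4 ± 5.37 CPM in lung, 30.2 ± 9.47 CPM in tibialis, 17.9 ± 13.8 CPM in heart, 6.76 ± 16.6 CPM in spleen and 0.0835 ± 0.0741 CPM in liver. Retn ran between 3.87 ± 3.50 CPM in soleus and 0.819 ± 0.675 CPM in heart over 7 tissues, with at most 1 count in a liver library. Acvr1c had its highest mean in soleus too, 4.53 ± 3.10 CPM, followed by gastrocnemius with 3.77 ± 1.73 CPM and EDL with 2.80 ± 1.44 CPM, and averaged 1.11 ± 0.888 CPM in heart. These are SDs over 10 libraries, or 9 in kidney and spleen. None of the neighbouring tissues in the order of Cfd, Retn, Acvr1c or Lep differed beyond the larger SD.

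Lep, the leptin gene, was a gene of the muscle libraries. It averaged 6.32 ± 3.23 CPM in gastrocnemius, 5.58 ± 4.66 CPM in soleus, 2.67 ± 1.85 CPM in tibialis and 2.45 ± 2.06 CPM in EDL (SD, n = 10 each). In lung it averaged 0.417 ± 0.225 CPM and in kidney 0.257 ± 0.235 CPM. Heart held at most 4 counts of Lep in a library, spleen at most 3, and liver none in 10 libraries. Kidney held 0 to 16 counts of Lep in a library and lung 2 to 13 counts, above 3 counts in 5 of 9 kidney libraries and 6 of 10 lung libraries. The Adipoq mean of heart was close to that of tibialis, and the mean of kidney was above it, while the Lep means of both were below that of tibialis.

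Lipe and Ucp1 were distributed differently. Lipe was highest in lung, 76.6 ± 8.03 CPM, and in heart, 75.1 ± 4.56 CPM, and it was present in liver at 13.8 ± 2.81 CPM (SD, n = 10 each). Its coefficient of variation was 6.07 to 21.7% over the 9 tissues, against 23.9 to 76.9% for Adipoq in the 7 tissues outside liver and spleen. Ucp1 averaged 18.2 ± 19.7 CPM in heart (SD, n = 10) and 14.97 ± 6.13 CPM in kidney (SD, n = 9). It was at most 3 counts in every lung, liver and spleen library. In the muscles it stood above 3 counts in 3 EDL, 4 gastrocnemius, 4 soleus and 3 tibialis libraries of 10 each.

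**Figure D1:**
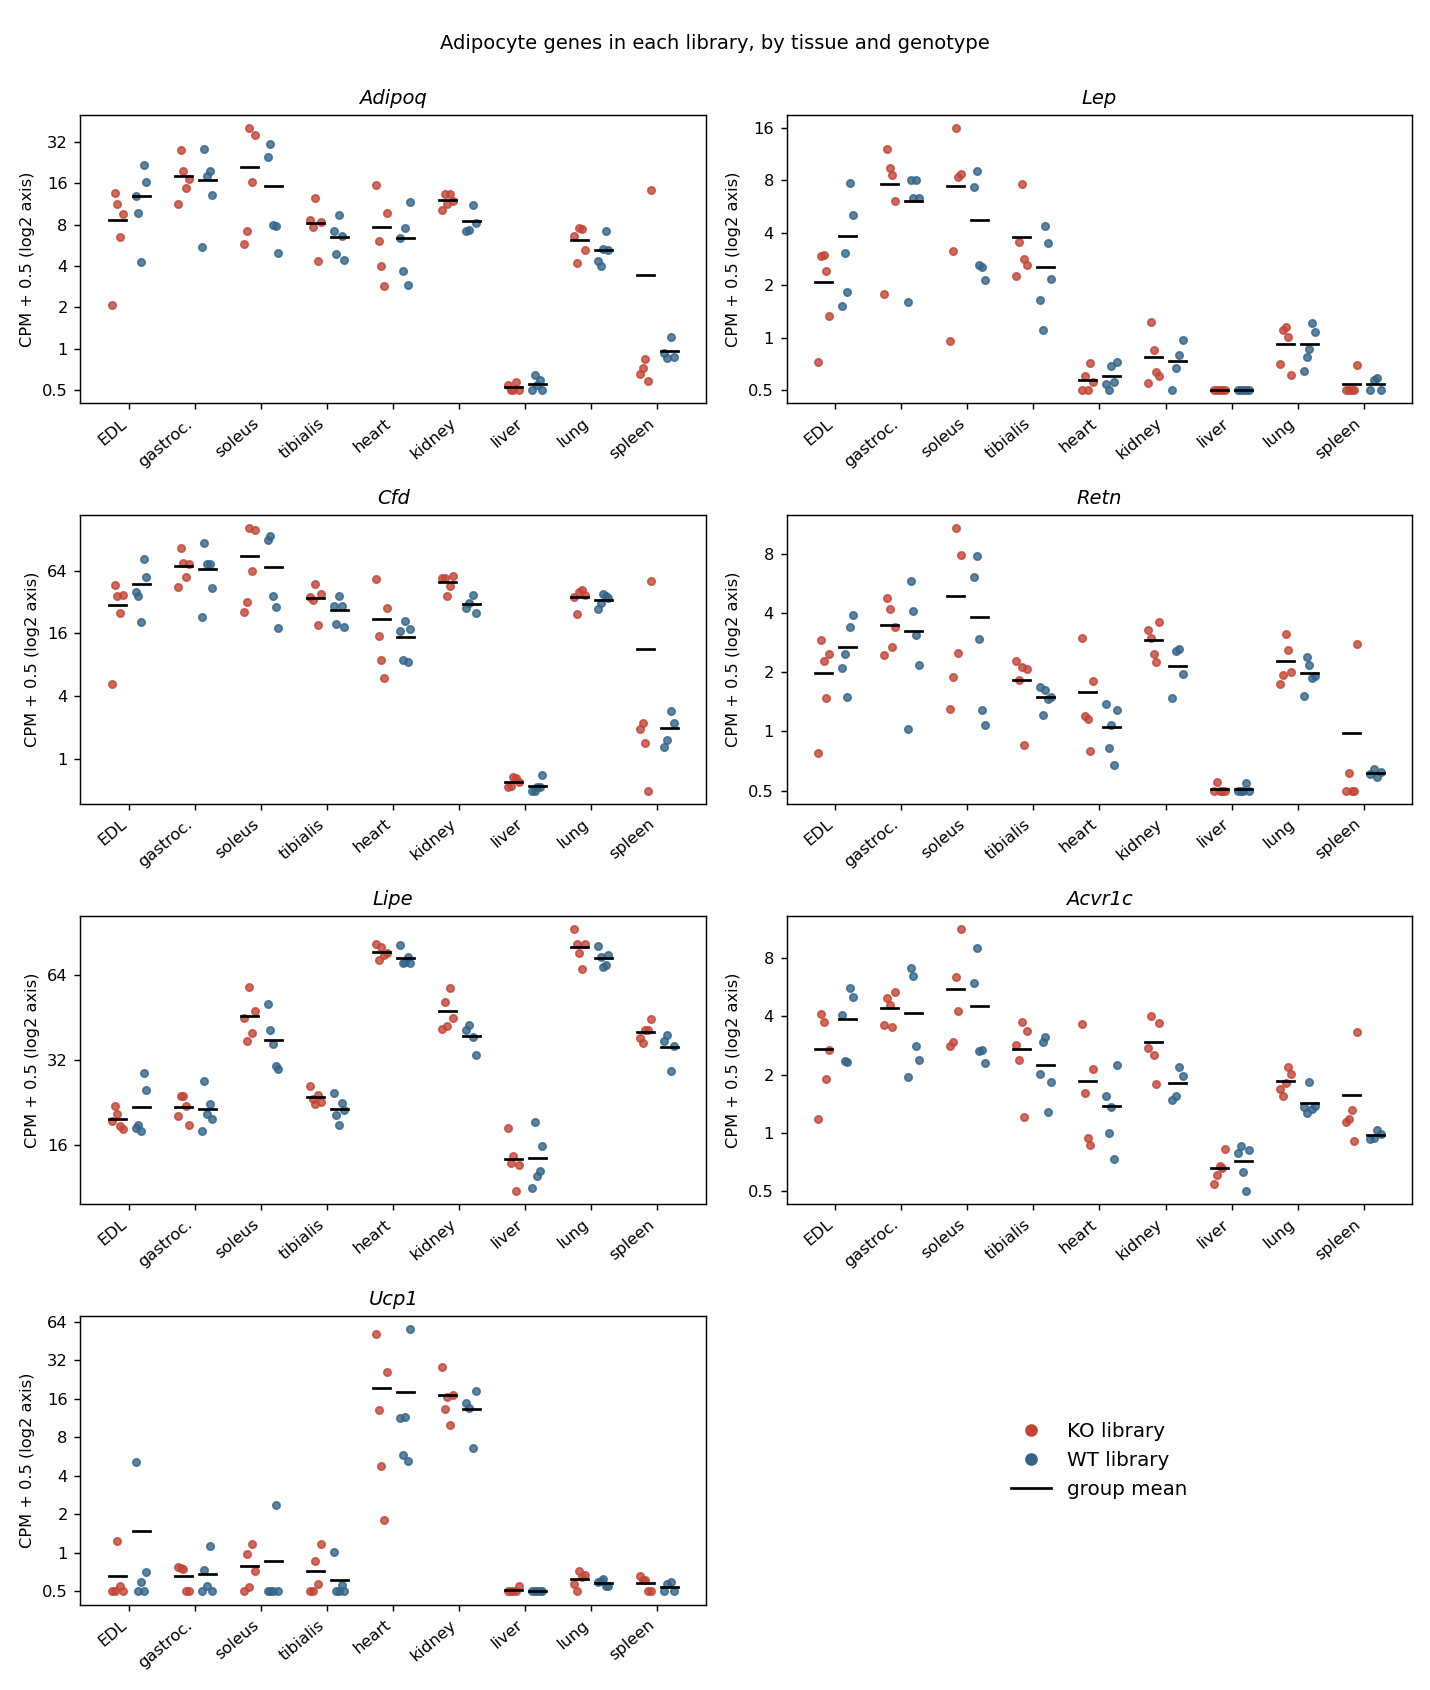
Levels of the 7 genes in each library (CPM + 0.5 on a log2 axis, points) in 9 tissues, KO left of WT, with bars at the group means. Lep is at least 0.224 CPM in all 40 muscle libraries and at 0 in liver, Lipe is spread little in every tissue, and Ucp1 stands out in heart and kidney.

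Whether the genes moved together was asked library by library within a tissue. Levels as log2(CPM + 0.5) were correlated with Adipoq after the mean of each genotype was removed, so the difference between KO and WT does not enter. The p-values come from exact 2-sided permutations of libraries within genotype, the smallest possible being 6.94e-05, or 0.000347 in kidney. Of 34 relations, 31 were positive, and 22 had an unadjusted exact p below 0.05, of which 21 were positive. None passed a Benjamini-Hochberg adjustment over all genes of the tissue, which would have needed 18 to 22 genes at the smallest p, or 100 in kidney. The points share a dissection and a library, and correlations here describe that shared variation.

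Cfd followed Adipoq closely in all 4 muscles, and Lep, Retn and Acvr1c did so in soleus. In soleus, Adipoq had 5.33, 6.69, 39.8, 15.8 and 35.1 CPM in the KO libraries, against 24.2, 30.3, 7.45, 7.34 and 4.48 CPM in the WT libraries. Cfd in the same soleus libraries had 25.3, 31.6, 162, 63.3 and 156 CPM in KO, against 124, 138, 36.0, 28.1 and 17.6 CPM in WT. The same 4 libraries were highest for both genes, and they included both genotypes. Lep, at 0.458, 2.63, 15.5, 7.83 and 8.24 CPM in KO against 6.80, 8.50, 2.11, 2.05 and 1.65 CPM in WT, had all of those 4 libraries among its 5 highest. Retn had 0.802, 1.40, 10.3, 2.01 and 7.45 CPM in KO soleus, against 5.61, 7.29, 2.45, 0.794 and 0.584 CPM in WT soleus, again with those 4 libraries on top. Pearson's r of Cfd with Adipoq in soleus was 0.99 (exact permutation p = 6.94e-05, adjusted 0.0900) and Spearman's rho was 0.95 (exact permutation p = 6.94e-05). For Lep, r was 0.92 and rho 0.98 (each exact permutation p = 6.94e-05, adjusted 0.0900 for r). Retn had r 0.96 (exact permutation p = 0.000417, adjusted 0.200) and Acvr1c had r 0.94 (exact permutation p = 0.000694, adjusted 0.220). Without the 2 libraries farthest from the median of Adipoq, r in soleus was 0.99 for Cfd, 0.89 for Lep, 0.92 for Retn and 0.97 for Acvr1c.

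In gastrocnemius Cfd and Retn followed Adipoq as closely, Lep and Acvr1c less so, and the libraries ran in another order of mice. Adipoq had 10.8, 27.4, 19.1, 14.3 and 16.8 CPM in KO gastrocnemius, against 4.96, 27.8, 17.5, 19.1 and 12.6 CPM in WT gastrocnemius. Cfd had 44.5, 105, 74.6, 55.6 and 73.4 CPM in KO, against 22.5, 117, 73.7, 72.9 and 43.4 CPM in WT. WT mouse 3793543 was lowest for all 5 of Adipoq, Lep, Cfd, Retn and Acvr1c, and WT mouse 3793553 was highest for 4 of them. Cfd had r 0.99 and rho 0.98 (exact permutation p = 0.000139 and 0.000208, adjusted 0.159 for r), and r was 0.97 without the 2 farthest libraries. Retn had r 0.97 (exact permutation p = 0.000139, adjusted 0.159) and Lep r 0.85 (exact permutation p = 0.00139, adjusted 0.287). Acvr1c was looser, with r 0.75 (exact permutation p = 0.0249, adjusted 0.660), rho 0.71 (exact permutation p = 0.0510) and r 0.46 without the 2 farthest libraries.

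In tibialis, Cfd again followed Adipoq, while Lep and Acvr1c followed less over all libraries. Adipoq had 8.11, 7.20, 11.9, 3.87 and 7.80 CPM in KO tibialis, against 6.74, 4.42, 8.93, 6.11 and 3.89 CPM in WT tibialis. Cfd had 35.1, 32.7, 46.9, 18.6 and 37.6 CPM in KO, against 28.8, 19.3, 36.1, 29.0 and 17.9 CPM in WT. The range of Adipoq between libraries was 3.08-fold in tibialis, against 8.89-fold in soleus. Cfd had r 0.99 and rho 0.90 (exact permutation p = 0.000278 and 0.00292, adjusted 0.264 for r). Retn had r 0.78 (exact permutation p = 0.0166, adjusted 0.612), Acvr1c r 0.66 (exact permutation p = 0.0708) and Lep r 0.61 with rho 0.34 (exact permutation p = 0.0842 and 0.352). In EDL, r with Adipoq was 0.97 for Cfd (exact permutation p = 0.000139), 0.94 for Retn (exact permutation p = 0.00111), 0.93 for Acvr1c (exact permutation p = 6.94e-05) and 0.77 for Lep (exact permutation p = 0.0128). The adjusted p of these 4 was 0.358 to 0.760, rho was 0.83 to 0.98, and r was 0.81 to 0.96 without the 2 farthest libraries, except 0.56 for Lep.

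The share of all tested genes with an unadjusted exact p below 0.05 against Adipoq was 9.76% in soleus, 6.72% in gastrocnemius, 6.67% in tibialis and 6.31% in EDL. In heart it was 16.6%, in kidney 4.65% and in lung 5.1%. Against that, the members below 0.05 were 4 of 5 in EDL, 5 of 5 in gastrocnemius, 5 of 5 in soleus, 2 of 5 in tibialis, 4 of 5 in heart, 1 of 5 in kidney and 1 of 4 in lung. Of the 22 relations, 16 were still below 0.05 without the 2 libraries farthest from the median of Adipoq. The 6 others were Lep in EDL, Lipe and Acvr1c in gastrocnemius, Lipe in soleus, Retn in tibialis and Cfd in lung. Some relations went the other way and fell below 0.05 only without those libraries. They were Lep in tibialis (r 0.82, exact permutation p = 0.0365), Lipe in EDL (r 0.82, exact permutation p = 0.0191) and Lipe in kidney (r 0.86, exact permutation p = 0.0167). Over the 10 pairs among Adipoq, Lep, Cfd, Retn and Acvr1c, the median r was 0.93 in soleus, 0.89 in EDL, 0.84 in gastrocnemius and 0.63 in tibialis. Lep did not pass the filter in heart, kidney and lung. Over the 6 pairs without Lep, the median there was 0.94 in heart, 0.45 in kidney and 0.44 in lung, so these medians and those of the muscles cover unlike sets.

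**Figure D2:**
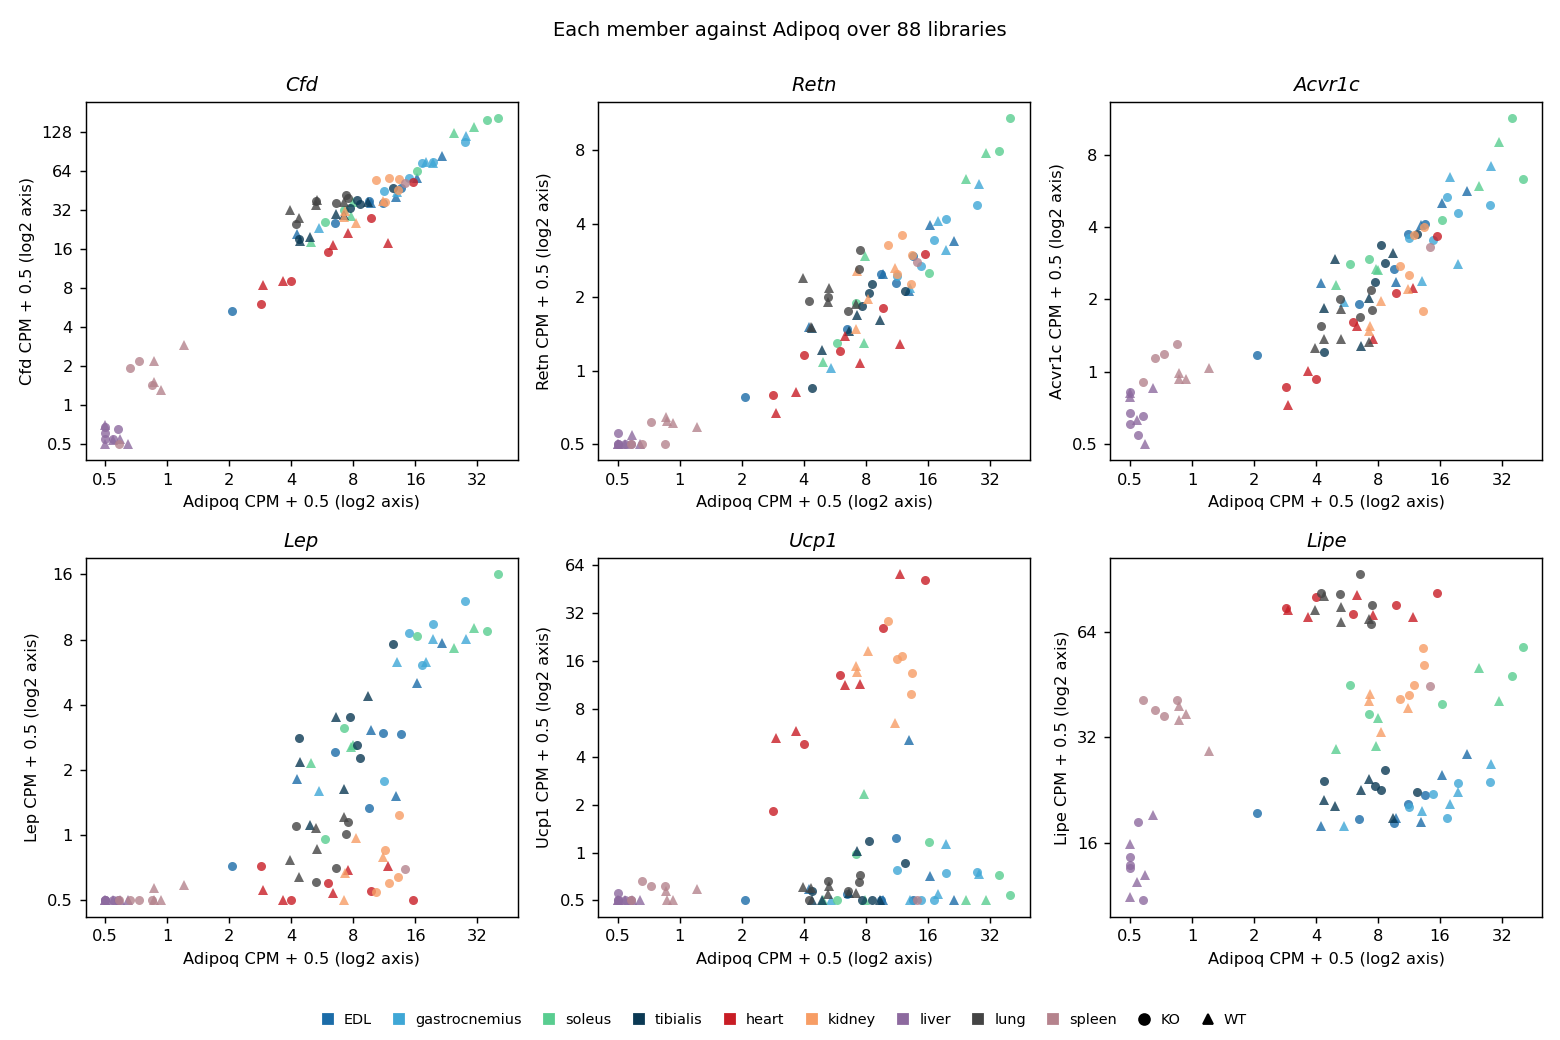
Level of each gene against Adipoq (CPM + 0.5 on log2 axes) in each library, coloured by tissue, with KO as circles and WT as triangles. Cfd lies along a line in the 4 muscles and heart (r 0.94 to 0.99 with genotype means removed), and Ucp1 runs downwards in kidney (r -0.85).

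In heart the genes moved together as well, and there Ucp1 moved with them. Adipoq had 15.04, 5.54, 3.50, 2.35 and 9.26 CPM in KO hearts, against 5.85, 3.16, 7.03, 2.42 and 11.3 CPM in WT hearts. Ucp1 had 51.1, 12.6, 4.28, 1.32 and 25.2 CPM in KO hearts, against 10.9, 5.31, 10.98, 4.73 and 55.6 CPM in WT hearts. The 2 hearts highest in Adipoq, KO mouse 3779417 and WT mouse 3817948, were also the highest in Ucp1, which ranged 42.1-fold between libraries. The same 2 hearts had the highest summed lung markers of their genotypes, 85.2 CPM in that KO heart, where the KO median was 16.8 CPM, and 65.7 CPM in that WT heart, where the WT median was 2.70 CPM. The part of this in the heart values was not tested. Ucp1 had r 0.96 and rho 0.94 (exact permutation p = 6.94e-05 and 0.000556, adjusted 0.0718 for r), and r was 0.94 without the 2 libraries farthest from the median of Adipoq. Acvr1c had r 0.98 (exact permutation p = 0.000139, adjusted 0.0811), Cfd r 0.94 (exact permutation p = 0.000347, adjusted 0.109) and Retn r 0.93 (exact permutation p = 0.000972, adjusted 0.121). Cfd had 52.3, 14.7, 8.48, 5.51 and 27.3 CPM in KO hearts, against 16.6, 8.51, 20.6, 7.96 and 17.2 CPM in WT hearts, so WT mouse 3817948, with the highest Ucp1, had a Cfd level near those of other hearts. Lipe had r 0.18 (exact permutation p = 0.632) over values of 70.3 to 82.0 CPM.

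In kidney, 5 genes could be set against Adipoq, and over all libraries 1 of them, Ucp1, had an unadjusted exact p below 0.05. Pearson's r with Adipoq was 0.38 for Cfd, 0.37 for Acvr1c, 0.27 for Lipe and 0.24 for Retn, with unadjusted exact permutation p of 0.287 to 0.648. Ucp1 ran against Adipoq, with r -0.85 and rho -0.85 (exact permutation p = 0.0160 and 0.0212, adjusted 0.991 for r), and r was -0.96 without the 2 farthest libraries. Adipoq ranged only 1.92-fold over the kidney libraries, against 13.5-fold in EDL. In lung, where Adipoq ranged 2.02-fold, Cfd had r 0.79 and rho 0.77 (exact permutation p = 0.00785 and 0.0194, adjusted 0.884 for r), and 0.71 without the 2 farthest libraries. The other lung values were r 0.36 for Acvr1c, 0.33 for Retn and -0.46 for Lipe, with exact permutation p of 0.224 to 0.387.

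**Figure D3:**
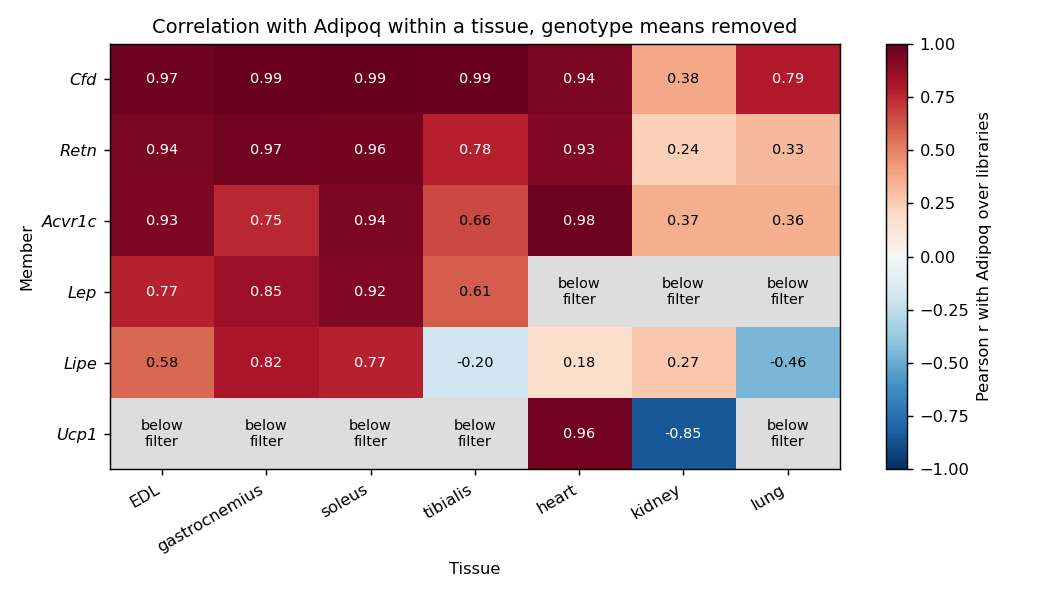
Pearson's r with Adipoq (no unit) over libraries, by gene and tissue, genotype means removed. Cfd and Retn lie between 0.93 and 0.99 in EDL, gastrocnemius, soleus and heart, Lep is lower at 0.77 in EDL and 0.85 in gastrocnemius, and the kidney values spread between -0.85 and 0.38.

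The levels were also set against Adipoq per length, as a ratio of RPKM within each library. In tibialis, Cfd was 524 to 642% of the Adipoq level over 10 libraries, a range of 1.23-fold, while Adipoq itself ranged 3.08-fold. In soleus Cfd was 509 to 686% of Adipoq, in gastrocnemius 459 to 603% and in EDL, where it ranged most among the muscles, 408 to 716%. Cfd in lung was higher per Adipoq, 715 to 1194%, and in heart lower, 202 to 463%. Lep had a median of 16.04% of Adipoq in tibialis, 13.8% in gastrocnemius, 10.7% in soleus and 9.63% in EDL, against 0.480% in heart, 0.940% in kidney and 2.90% in lung. The muscle libraries held 3.11 to 22.7%, the lung libraries 0.890 to 6.12%, the heart libraries 0 to 3.55% and the kidney libraries 0 to 2.31%. The muscle range overlapped with those of lung and heart. Ucp1 was 42.2 to 370% of Adipoq in heart and 42.8 to 215% in kidney, with medians of 143% and 111%. Lipe ran widest among the members counted in every EDL library, at 58.1 to 526% of Adipoq.

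**Figure D4:**
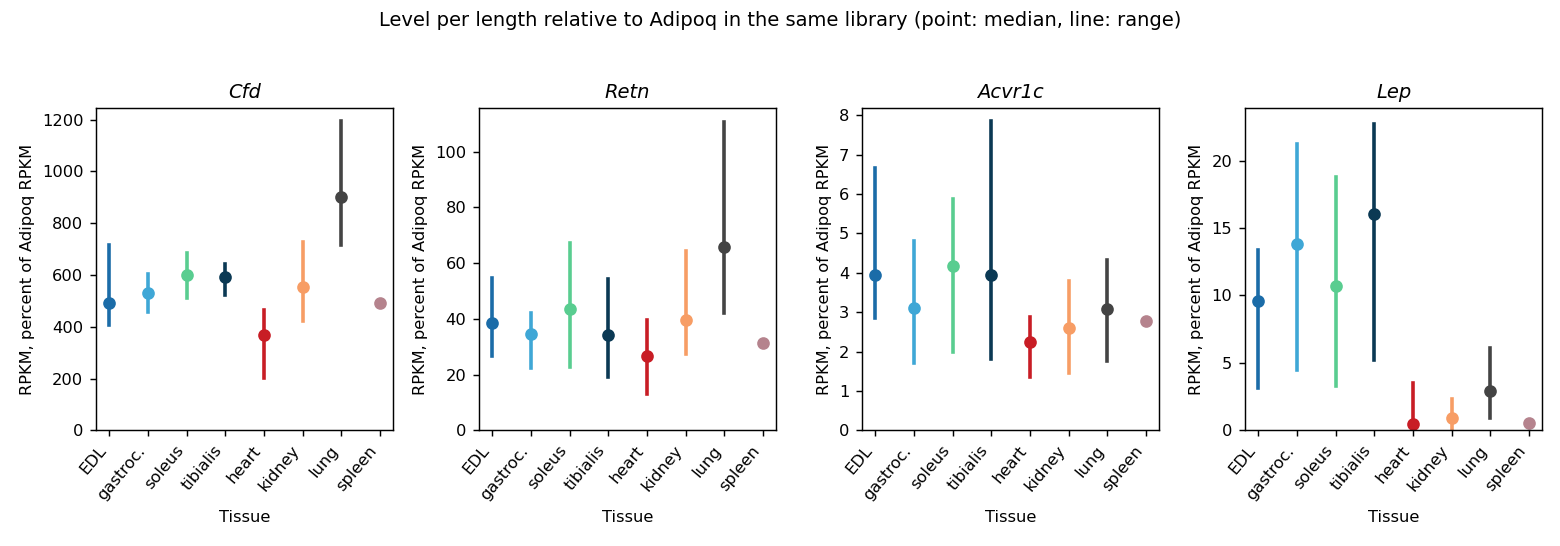
Level as percent of the Adipoq level (RPKM ratio), by gene and tissue, in libraries with at least 10 Adipoq counts. Cfd lies within 408 to 716% in the 4 muscles, and the Lep medians are 9.63 to 16.04% in muscles, against 0.480 to 2.90% in heart, kidney and lung.

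In EDL, all 7 genes had lower means in KO than in WT, with every group overlapping. Ucp1 did not pass the filter there, and its WT mean of 0.987 CPM rested on mouse 3793543, at 4.63 CPM. Adipoq had 1.57, 13.1, 10.7, 5.99 and 9.01 CPM in KO EDL, against 12.4, 9.24, 3.75, 21.1 and 15.9 CPM in WT EDL. Lep had 0.224, 2.44, 2.48, 1.92 and 0.832 CPM in KO EDL, against 1.02, 2.57, 1.33, 7.20 and 4.53 CPM in WT EDL. Cfd had 4.81, 46.4, 35.7, 24.9 and 37.0 CPM in KO EDL, against 39.8, 35.8, 20.2, 82.6 and 55.7 CPM in WT EDL. For these 3 genes KO mouse 3779417 was lowest, and WT mouse 3805673 was highest. The log2 fold changes from edgeR were -0.64 (SE 0.55) for Adipoq, -1.10 (SE 0.63) for Lep, -0.65 (SE 0.56) for Cfd, -0.57 (SE 0.46) for Retn and -0.61 (SE 0.43) for Acvr1c. Lipe stood at -0.15 (SE 0.14). Without KO mouse 3779417 the 5 hormone and receptor values were -0.38, -0.84, -0.39, -0.32 and -0.40, and Lep was -0.65 without WT mouse 3805673. That KO library, singled out after its values were seen, was also lowest for 6 of 6 Schwann cell genes, whose sum was 74.0 CPM against 180 to 264 CPM in the other EDL libraries. It was lowest for 6 of 13 further fat cell genes, and the part of these in the difference was not tested. In EDL, 0.00777% of all genes passed the threshold in edgeR, which was Cdh15 alone, and DESeq2 called 4 genes.

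In kidney, all 7 genes had higher means in KO than in WT. Adipoq had 9.78, 12.9, 10.9, 12.7 and 11.5 CPM in KO kidneys, against 6.69, 6.79, 10.6 and 7.74 CPM in WT kidneys. Cfd had 53.5, 54.3, 35.9, 44.8 and 56.1 CPM in KO kidneys, against 27.8, 30.7, 36.7 and 24.6 CPM in WT kidneys. Acvr1c had 2.24, 3.49, 2.03, 1.297 and 3.19 CPM in KO kidneys, against 0.975, 1.05, 1.70 and 1.46 CPM in WT kidneys. In each case the groups overlapped through a single library, WT mouse 3805673 for Adipoq and Cfd, or KO mouse 3805676 for Acvr1c. The log2 fold changes were 0.50 (SE 0.13) for Adipoq, 0.67 (SE 0.14) for Cfd, 0.88 (SE 0.27) for Acvr1c, 0.50 (SE 0.23) for Retn and 0.25 (SE 0.10) for Lipe. Retn had 2.77, 2.48, 1.98, 1.76 and 3.09 CPM in KO kidneys, against 0.975, 2.07, 2.14 and 1.46 CPM in WT kidneys. Lipe had 40.7, 51.1, 41.7, 57.0 and 44.7 CPM in KO kidneys, against 40.3, 42.1, 38.2 and 32.8 CPM in WT kidneys. Ucp1, with 28.0, 12.9, 16.03, 9.45 and 16.6 CPM in KO kidneys against 14.4, 13.1, 6.07 and 18.1 CPM in WT kidneys, stood at 0.32 (SE 0.40), and at 0.036 without KO mouse 3779417. Lep was at 1 to 16 counts in KO kidneys and 0 to 10 counts in WT kidneys, and did not pass the filter.

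None of the 6 filtered members had all KO kidneys above all WT kidneys, a state that 1.02% of all genes (145 of 14274) showed. The share of genes past the threshold in kidney was 0%, with 478 genes at an unadjusted p below 0.05 in edgeR and 4 genes past the threshold in DESeq2. The other fat cell genes in kidney, a list of 13 with Plin1, Cidec and Fabp4 among them, had a higher fitted level in KO for 13 of 13, with a median log2 fold change of 0.29. The median over all genes was -0.00020, and 49.9% of them were positive. No gene of the list passed the threshold. Kidney was used to pick the members, so the values of this and other lists here are a description with no test as sets. The summed level of the 13 was 349 to 427 CPM in KO kidneys and 326 to 345 CPM in WT kidneys. The same list summed to 339 to 419 CPM in KO livers, where Adipoq was near 0, so the sum is no measure of fat cells alone. The groups lay close together, and how often other summed lists lie apart was not computed. Markers of brown fat were positive for 5 of 6 in kidney, with a median of 0.20, and fibroblast markers for 6 of 8, with a median of 0.095. The part of other cells in the kidney values was not tested.

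**Figure D5:**
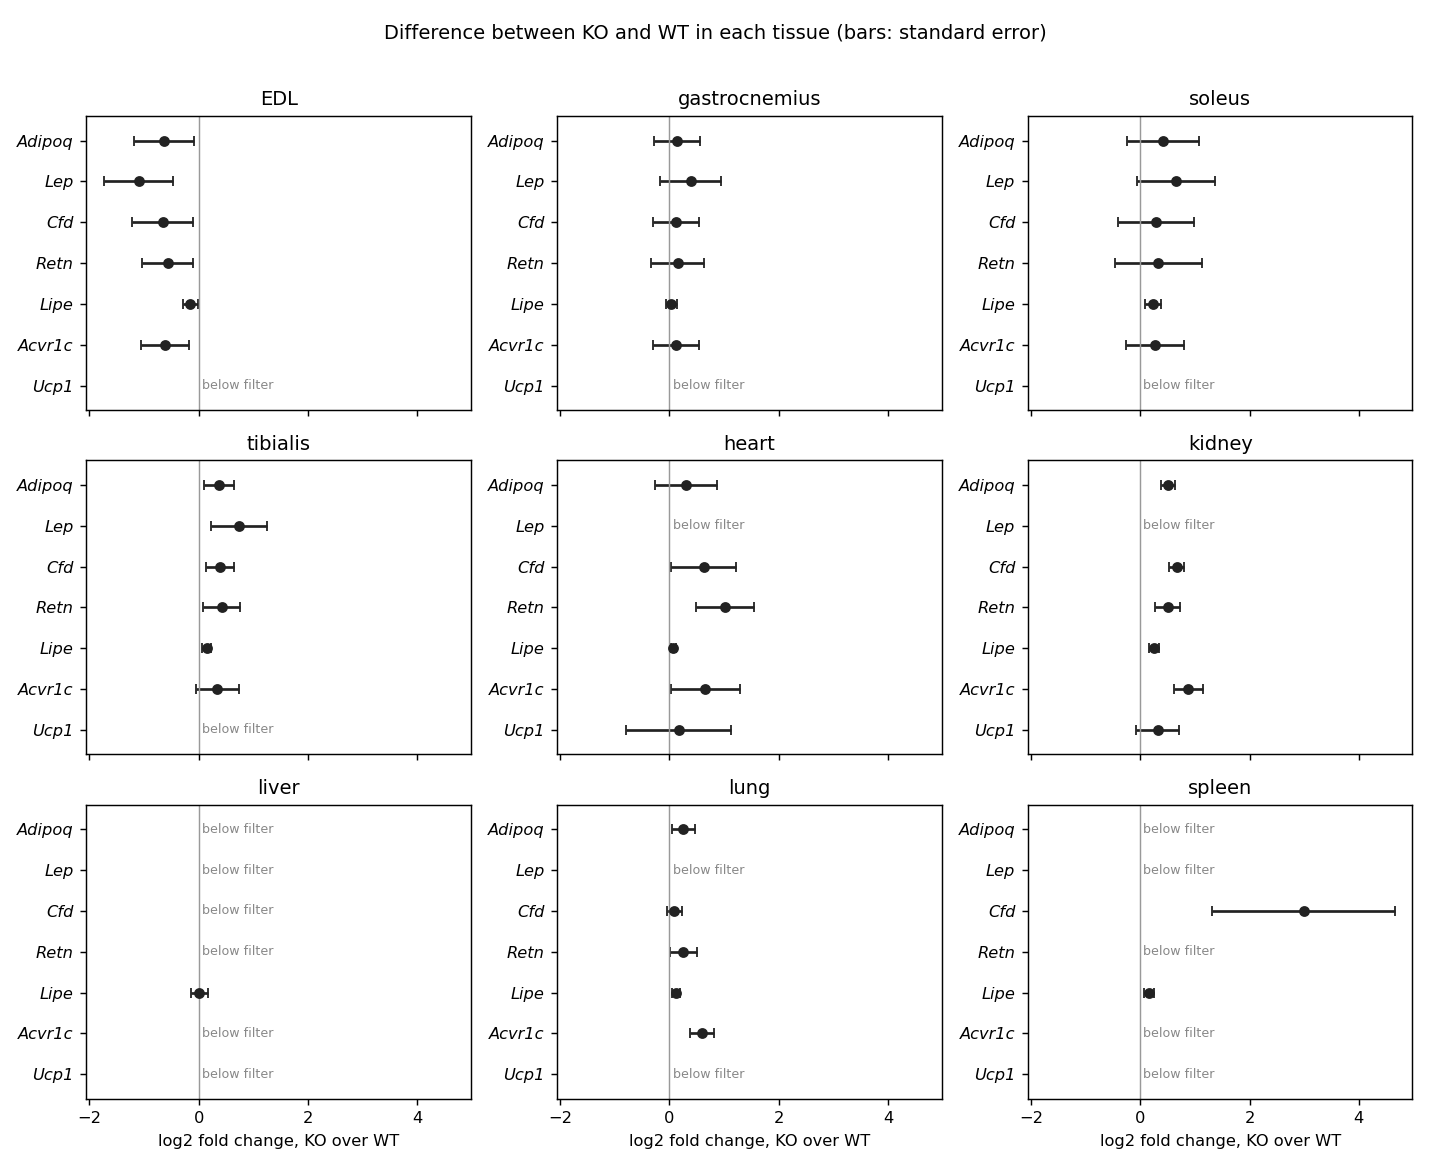
KO against WT log2 fold changes (x axis) with SE from edgeR for each gene, by tissue, with genes below the filter on low counts marked. The EDL values are all below 0 and the kidney values all above 0, and both tissues were used to pick the genes.

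The 7 tissues that had no part in the choice were tested. They came from the same mice as the EDL and kidney libraries, and the members and tests were chosen with earlier results of these data known. None of the members that passed the filter was called there by edgeR or by DESeq2, at 6 members in gastrocnemius, soleus, tibialis and heart, 5 in lung, 2 in spleen and 1 in liver. The share of all genes called by edgeR was 0.00792% in gastrocnemius, 0.00771% in soleus and 0.0081% in tibialis, in each case Cdh15 alone, and 0% in heart, liver, lung and spleen. DESeq2 called 165 genes in soleus, 2 in gastrocnemius and 1 in tibialis, and edgeR had 2235, 246 and 219 genes there at an unadjusted p below 0.05. In the 4 last tissues edgeR had 421, 194, 313 and 118 genes at an unadjusted p below 0.05, and DESeq2 called 0. The mean level was above WT in KO for 6 of 7 genes in gastrocnemius, soleus, heart and spleen, for 7 of 7 in tibialis and lung and for 3 of 7 in liver. Over all tested genes, 46.7 to 53.4% had a positive log2 fold change in these 7 tissues. The counts of members include those below the filter, such as Ucp1 in lung with at most 3 counts. The members often moved together within libraries, so they are not separate counts. The spleen means of Adipoq and Cfd in KO rest on 1 library. The smallest edgeR adjusted p of a member was 0.403, for Lipe in soleus.

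In tibialis the log2 fold changes lay between 0.15 (SE 0.09) for Lipe and 0.74 (SE 0.51) for Lep. In soleus they lay between 0.23 (SE 0.14) for Lipe and 0.66 (SE 0.72) for Lep. In gastrocnemius Adipoq stood at 0.14 (SE 0.41) and Lep at 0.39 (SE 0.57). In heart, Retn stood at 1.02 (SE 0.53), with 2.50, 0.705, 0.656, 0.294 and 1.30 CPM in KO hearts against 0.884, 0.320, 0.578, 0.173 and 0.785 CPM in WT hearts. Acvr1c was 0.66 (SE 0.63), Cfd 0.63 (SE 0.60), Adipoq 0.30 (SE 0.56), Ucp1 0.17 (SE 0.96) and Lipe 0.07 (SE 0.05) in heart. In lung, Acvr1c had 1.18, 1.05, 1.31, 1.69 and 1.51 CPM in KO against 0.866, 0.759, 1.32, 0.826 and 0.874 CPM in WT, so the genotypes overlapped through WT mouse 3805657. Its log2 fold change of 0.60 (SE 0.22) had an unadjusted edgeR p of 0.0147 and an adjusted p of 0.9998.

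In spleen a single KO library carried the fat cell genes. Adipoq had 0.159, 0.227, 0.347, 0.0806 and 13.8 CPM in KO spleens, against 0.433, 0.363, 0.713 and 0.366 CPM in WT spleens. Cfd had 1.43, 1.70, 0.924, 0 and 50.9 CPM in KO spleens, against 0.812, 1.02, 2.41 and 1.71 CPM in WT spleens. KO mouse 3817943 stood far above all other spleens for both, and it was highest for all 5 of Adipoq, Lep, Cfd, Retn and Acvr1c. The log2 fold change of Cfd was 2.99 (SE 1.67, edgeR adjusted p = 0.99994), and -0.59 without that library. In the same library, singled out after its values were seen, Cidec had 279 counts against at most 7 in the other spleens, Plin1 80 against at most 3, and Fabp4 759 against at most 120. Of the 13 other fat cell genes 9 were highest there, and Aqp7, Pparg, Dgat2 and Thrsp were not, with Pparg at 9.96 CPM against at most 10.9 CPM in the other spleens. The summed level of all 13 was 122 CPM there and 21.4 to 32.6 CPM in the other spleens. The exocrine pancreas markers summed to 5.68 CPM, below the 6.596 to 15.2 CPM of the other spleens, but only 1 of these 7 markers was above 3 counts in any KO spleen. Of 6 mesothelium markers 4 were highest in that library, with a sum of 58.9 CPM against 35.0 to 60.4 CPM in the other spleens. The part of other cells in its values was not tested. Relative to Adipoq its Cfd was 492% and its Lep 0.550% per length, with 3 counts of Lep and 0 of Ucp1. A correlation was not computed in spleen, where Adipoq did not pass the filter, nor in liver.

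Between tissues outside the choice, the genes were compared with genotypes averaged. In 3 muscles (soleus, gastrocnemius, tibialis) against 4 organs (heart, liver, lung, spleen), 6 of 7 members were called by edgeR, while 85.9% of all genes were called. Cfd had a log2 fold change of 4.63 (SE 0.31), Adipoq 4.25 (SE 0.30), Retn 3.88 (SE 0.33) and Acvr1c 3.15 (SE 0.21), all higher in muscles. These are averages on a logarithmic scale, where liver, close to 0 for these 4 genes, weighs strongly. The soleus and gastrocnemius means were above those of all 4 organs. In tibialis, Adipoq (6.90 CPM) was near heart (6.54 CPM). Lung was above tibialis for Cfd (34.4 against 30.2 CPM) and Retn (1.63 against 1.16 CPM). Lep was called too, but it had no count in liver, so its means stand for it and no fold is given. Lipe stood at 0.17 (SE 0.04, edgeR adjusted p = 0.000251), with a median of all genes at -0.15, and its sign turned on the scale. On CPM without TMM scaling, a setting added after the data were seen, its geometric mean was 26.4 CPM in muscles and 41.2 CPM in organs, a log2 difference of -0.64. Ucp1 was not called (edgeR adjusted p = 0.247). In heart against liver, lung and spleen, 7 of 7 were called, against 83.5% of all genes. Adipoq was higher in heart by 3.88 (SE 0.46), Cfd by 3.49 (SE 0.50), Retn by 2.61 (SE 0.46), Lipe by 1.70 (SE 0.06) and Acvr1c by 1.61 (SE 0.29), with the median of all genes at -0.15. The averages over the 3 organs rest on a logarithmic scale, where liver, close to 0 for all but Lipe, weighs strongly, and lung had Cfd, Retn and Acvr1c means at or above those of heart. No fold is given for Ucp1, which was at or under 3 counts in each of the other 3 organs, or for Lep, which was lower in heart (0.0892 CPM) than in lung (0.417 CPM) and was not called with DESeq2 or without mouse 3805657, 3805676 or 3817948.

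In soleus against gastrocnemius and tibialis, 2 of 6 members were called, against 55.8% of all genes. Lipe was higher in soleus by 0.77 on the log2 scale (SE 0.07, edgeR adjusted p = 8.84e-10), with 45.1 ± 8.02 CPM in KO and 37.0 ± 8.54 CPM in WT soleus (SD, n = 5 each). Retn was higher by 0.92 (SE 0.38, edgeR adjusted p = 0.0430). With the mouse as a block Retn stood at 0.74 and was not called (edgeR adjusted p = 0.0896), and it was not called in 6 of the 10 fits that left out 1 mouse, those without 3793543, 3793553, 3805657, 3805666, 3805676 or 3817943, with an edgeR adjusted p of at most 0.188. Acvr1c, not called without the block, was called with it at 0.52 (edgeR adjusted p = 0.0480), and at 0.74 without mouse 3805657. Adipoq at 0.52 (SE 0.32), Cfd at 0.62 (SE 0.32) and Lep at 0.27 (SE 0.40) were not called. The soleus of KO mouse 3805666, highest for 4 of the 5 hormone and receptor genes, had a summed level of skeletal muscle markers of 32608 CPM, against 65823 to 116163 CPM in the other soleus libraries. The part of this in the soleus values was not tested.

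Further fat cell genes were set against Adipoq in the same way, and followed it most often in soleus and EDL. Of the list of 13, those with a positive r and an unadjusted exact permutation p below 0.05 were 7 of 12 tested in EDL, 5 of 12 in gastrocnemius, 9 of 12 in soleus, 2 of 11 in tibialis, 3 of 11 in heart, 1 of 13 in kidney and 1 of 13 in lung. Over all genes, the share below 0.05 in either direction was 16.6% in heart and 4.65 to 9.76% in the other tissues. The median r of the list was 0.83 in soleus, 0.76 in EDL, 0.56 in gastrocnemius, 0.41 in heart and 0.07 in tibialis. Cidec, a lipid droplet protein of fat cells, had r 0.98 in EDL, 0.99 in soleus and 0.98 in heart. Lgals12, which encodes a galectin of fat cells, had r 0.92 in EDL, 0.99 in soleus and 0.78 in kidney. Plin1, the lipid droplet coat protein perilipin, had r 0.98 in heart. Of the lipolysis genes, 8 of 12 were positive below 0.05 in heart, 6 of 10 in gastrocnemius and 5 of 10 in EDL and in soleus. No gene of these lists was called between KO and WT in any tissue.

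Brown fat genes other than Ucp1 followed Adipoq in heart. Of 5 tested, 4 had an unadjusted exact permutation p below 0.05, against 16.6% of all heart genes. Among them, Dio2, which encodes the deiodinase that activates thyroid hormone, had r 0.91, Cidea, a lipid droplet protein of brown fat, had r 0.80 and Slc36a2, an amino acid transporter, also had r 0.80. In kidney, 0 of 6 were below 0.05. Markers of other cells also moved with Adipoq in places. The Schwann cell genes had r above 0 for 6 of 6 in EDL, with a median of 0.71 and 1 of 6 below 0.05. In heart, the mesothelium markers summed to 46.5 CPM in KO mouse 3779417, which was highest in Adipoq, and to 20.7 to 33.5 CPM in the other hearts. WT mouse 3817948, highest in Ucp1, had the lowest mesothelium sum, 20.7 CPM, and the highest sum of the brown fat list, 95.2 CPM. That list summed to 178 to 490 CPM in WT livers, which held no count of Ucp1, so its sum is no measure of brown fat alone. In gastrocnemius, macrophage markers had r above 0 for 6 of 6, with 4 of 6 below 0.05 and a median of 0.74, against 6.72% of all genes. Fibroblast markers there had r above 0 for 8 of 8, with 3 of 8 below 0.05 and a median of 0.66, and tendon markers for 5 of 6, with 3 of 6 below 0.05 and a median of 0.63. Endothelial markers had r above 0 for 6 of 6 in heart, with 2 of 6 below 0.05, and for 0 of 6 in gastrocnemius. The part of these cells in the correlations was not tested.

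Receptors of the hormones and partners of ALK7, among them Adipor1, Lepr and Acvr2b, were set against Adipoq in the same way. Those below an unadjusted exact permutation p of 0.05 in either direction were 2 of 12 in EDL, 1 of 12 in gastrocnemius, soleus and tibialis, 3 of 12 in heart and 0 of 12 in kidney and in lung. The genes of the alternative complement pathway, in which adipsin acts, had 3 of 5 below 0.05 in soleus, 2 of 5 in gastrocnemius, 1 of 6 in EDL, heart and lung, 1 of 5 in kidney and 0 of 5 in tibialis. Over all genes, the share below 0.05 to set beside both lists was 16.6% in heart, 9.76% in soleus and 4.65 to 6.72% in the other tissues. None of the genes of either list was called between KO and WT in any tissue.

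Outside the members, the genes most like Adipoq over the libraries of a tissue were Hp (r 0.98), Pck1 (0.98) and Cidec (0.98) in EDL, over 10 libraries. Pck1 encodes the phosphoenolpyruvate carboxykinase of glyceride synthesis in fat and Hp encodes haptoglobin. In soleus they were Lgals12 (r 0.99), Pck1 (0.99) and Cidec (0.99), and in gastrocnemius Prkar2b (0.97), Gnai1 (0.96) and Acp5 (0.96). In heart they were Cspg4, Adtrp and Pon1 (each 0.99), and in tibialis Kctd6 (0.94), Gpr137b (0.94) and Zfp146 (0.93). In kidney, over 9 libraries, 1110034G24Rik (0.96), Defb42 (0.95) and 0610030E20Rik (0.95) came first, and in lung Zfp235 (0.93), Xrcc4 (0.93) and Por (0.91). Over the 18 group means, Spearman's rho with Adipoq was 0.94 for Acvr1c, first of 16414 genes, followed by Tln2 and Sim2 (each 0.94), Retn (0.91) and Hoxd8 (0.91). Cfd came 6th with 0.90 and Lep 25th with 0.84, while Ucp1 had 0.67 and Lipe 0.06. These group means share mice and tissues, and the values are descriptions.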

How the data were processed

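RNA of 88 tissue samples was extracted with MagMax and made into KAPA stranded mRNA-Seq libraries, per the labels' protocols. The authors deposited a table of expected counts per gene and a table of RPKM values, on mm10 per the submitters' processing notes. The aligner and the counter are not given in the sources used here. Of the deposited expected counts, 14.4% were not whole, and they were rounded before the fits, which the plan had set for expected counts. The deposited RPKM values equalled those recomputed from counts and exon lengths to a ratio of 0.9997 to 1. Marker sequences (22, at most 0.0323% of counts) were left out. Library totals ran between 8205964 and 25144410 counts, which limits the precision of genes near 3 counts.

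The members, the gene lists and the tests were chosen with earlier results of these data known. KO and WT were compared within each tissue with edgeR 4.0.16 (quasi-likelihood test, TMM, filterByExpr with a minimum count of 10 and total of 15) in R 4.3.3, with Benjamini-Hochberg adjustment over all genes and a threshold of 0.05. SEs are the log2 fold change over the root of F. Tissue contrasts averaged the genotypes. Correlations used log2(CPM + 0.5), with exact permutations in numpy 2.4.6. Scripts were tested on simulated data.

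Same-numbered samples are tissues of the same mouse. Their deviations from the group means had a mean correlation of 0.100 over 344 pairs of tissues, and 0.260 over the 30 pairs among soleus, gastrocnemius and tibialis. KO and WT are different mice, and sets of like age were tried as a block. No p-value between tissues takes the shared mouse into account unless the block is named. The names of all libraries end in the same code, whose meaning the labels do not give, and a batch term was not fitted. Alternatives were DESeq2 1.42.0, its size factors, no filter, age, the blocks, a pseudocount of 2 CPM, TMM-scaled sizes, Spearman correlation, and leaving out single mice or the 2 libraries farthest from the median of Adipoq, and, added after the data were seen, CPM without TMM scaling for Lipe between tissues. Named genes are the 7 members, the 3 genes most like Adipoq in each tissue, the 5 most like it over group means, and at most 3 genes of each list by correlation p per tissue. No 2 libraries of the same tissue and genotype agreed within sampling noise (172 replicate pairs), and pairs across groups were not compared.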

Additional observations from a re-analysis of the deposited data

Results flagged for a closer look

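Within groups of 4 or 5 libraries, the highest and lowest values were set against Dixon's 95% limit. A value stood farther from the rest than this limit in 13 of 109 groups. A chance rate of about 1 in 20 holds for independent normal values. Some groups here lie near 0 counts and the genes share libraries, so an excess over chance was not measured. In the spleen of KO mouse 3817943, Adipoq was 13.8 CPM against 0.0806 to 0.347 CPM in the other KO spleens, Retn 2.27 CPM against 0 to 0.114 CPM, and Acvr1c 2.81 CPM against 0.403 to 0.809 CPM. In EDL, Cfd of KO mouse 3779417 was 4.81 CPM against 24.9 to 46.4 CPM in the other KO EDL libraries. In gastrocnemius, Lep of WT mouse 3793543 was 1.10 CPM against 5.81 to 7.52 CPM in the other WT libraries. In tibialis, Retn of KO mouse 3805676 was 0.352 CPM against 1.33 to 1.77 CPM in the other KO libraries.

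In lung, Cfd of KO mouse 3793546 was 24.3 CPM against 35.5 to 41.2 CPM in the other KO lungs, and Acvr1c of WT mouse 3805657 was 1.32 CPM against 0.759 to 0.874 CPM in the other WT lungs. In liver, Cfd of WT mouse 3817948 was 0.209 CPM, or 4 counts, against 0 to 0.0451 CPM in the other WT livers.

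Ucp1 stood out in single muscle libraries. It was 0.744 CPM in the EDL of KO mouse 3805666, against 0 to 0.0468 CPM in the other KO EDL libraries. In WT mouse 3793543 it was 4.63 CPM in EDL, against 0 to 0.210 CPM in the other WT EDL libraries, and 0.522 CPM in tibialis, against 0 to 0.0599 CPM in the other WT tibialis libraries. In the soleus of WT mouse 3805673 it was 1.85 CPM, with 0 in the other WT soleus libraries.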

How the results depend on the processing

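No member was called between KO and WT in any setting run in the 7 tissues outside the choice. The counts of genes called moved with DESeq2's Wald test to 165 in soleus, 4 each in EDL and kidney and 2 in gastrocnemius, and to 1 in kidney with no filter. Leaving out 1 mouse gave 1 to 2 genes in soleus (2 without KO 3793546), EDL and gastrocnemius (2 each without WT 3805657). In soleus against gastrocnemius and tibialis, 1 member was called with no filter (Retn 0.91, not called), and 1 to 2 without 1 mouse.

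With the mouse as a block, 2 members were called in the soleus contrast, 7 in heart against 3 organs and 6 in muscles against organs, and Retn (0.74, not called) and Acvr1c (0.52, called) changed sides; no other call of a member changed. On CPM without TMM scaling, added after the data were seen, Lipe in muscles against organs was -0.64. With DESeq2, Lep was not called in heart against 3 organs. The median of all genes moved to -0.10 and -0.22 with DESeq2's size factors in the organ contrasts.

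Some values without a call changed sign. Lipe in liver was -0.012 with age and -0.0051 with age-matched sets as a block. The correlation of Lipe in heart was -0.23 with TMM-scaled sizes and -0.16 without the 2 farthest libraries, and that of Retn in lung was -0.21 without them. Leaving out 1 mouse gave log2 fold changes in gastrocnemius of -0.10 to 0.43 (Adipoq), -0.10 to 0.43 (Cfd), -0.13 to 0.56 (Retn), -0.025 to 0.13 (Lipe) and -0.092 to 0.47 (Acvr1c). It gave in soleus -0.046 to 0.69 (Cfd), -0.26 to 0.84 (Retn) and -0.20 to 0.74 (Acvr1c), and in heart -0.17 to 0.63 (Adipoq), -0.0078 to 0.84 (Cfd) and -0.63 to 1.25 (Ucp1). It gave -0.10 to 0.13 for Lipe in liver, -0.59 to 3.44 for Cfd in spleen and -0.12 to 1.24 for Ucp1 in muscles against organs. Correlations ran over -0.40 to 0.14 (Lipe, tibialis), -0.11 to 0.35 (Lipe, heart), -0.084 to 0.54 (Cfd, kidney) and -0.20 to 0.44 (Retn, kidney). The cause was not tested.

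Lep in heart and spleen, Ucp1 in lung and spleen and all members but Lipe in liver had at most 6 counts in a library, so differences there were not detectable at this depth.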
